A study of Rattus norvegicus with 21 samples.

Results

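Nppa and Nppb are the genes of the cardiac natriuretic peptides, and 2 of the 30560 Ensembl gene IDs in each deposited count table are their rows (ENSRNOG00000008176 for Nppa and ENSRNOG00000008141 for Nppb). They were chosen by ID as the usual transcript markers of cardiomyocyte hypertrophy, and both were measured in all 20 RNA sequencing libraries. The cells, labelled NRVMs, were ventricular myocytes of newborn rats grown in culture. In the knockdown table, cells received a small interfering RNA to Klf2 (siKlf2) or a negative control (siNeg) 12 h before phenylephrine (PE), an agonist of α1-adrenergic receptors that makes cultured cardiomyocytes grow. The 4 groups of that table were siKlf2-PE, siNeg-PE, siKlf2 and siNeg, with 2 libraries each. Overexpression used an adenovirus carrying Klf2 (Ad-Klf2) or green fluorescent protein (Ad-GFP), which was added once PE or no PE had been applied for 12 h and left for another 24 h. Its 4 groups were Ad-Klf2-PE, Ad-GFP-PE, Ad-Klf2 and Ad-GFP, with 3 libraries each. The labelled dose of PE was 100 µM, for 36 h in the PE groups, and all groups shared a medium with insulin, transferrin and selenium. The libraries without PE carry the same dose label with a time of 0 h, so groups were taken from the sample titles. Virus thus came after the start of PE, whereas the small interfering RNA came before it. The level of Klf2 itself and markers of cardiac and other cell types were not analysed here, because the reference used here gives no symbols for the other IDs, so the labelled cell type and the manipulation were not checked.

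Nppa encodes the precursor of atrial natriuretic peptide (ANP) and Nppb that of brain or B-type natriuretic peptide (BNP). Both hormones act through the guanylyl cyclase receptor NPR1, raise cyclic GMP in target cells, widen blood vessels and promote excretion of salt and water. Ventricular myocytes express both in fetal life, lower them after birth and express them again under load or adrenergic stimulation, which makes their transcripts standard readouts of hypertrophic signalling. KLF2 is a zinc finger transcription factor best known from endothelial cells, and factors of its family bind CACCC or GC-rich boxes.

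The stretches just before the annotated starts are shown because the genes are neighbours on the same strand, with 0 annotated genes between them. The sequences come from RefSeq on build GRCr8, whereas the counts were made on mRatBN7.2. The Nppa window is chr5:163711934-163712183 and the Nppb window is chr5:163699758-163700007, both on the plus strand. Each is printed from 5′ to 3′ with the base before the start last, and capitals mark KLF and GATA boxes. A KLF box was any CACCC, on either strand, and GC-rich boxes were not searched for. Among GATA boxes the form AGATAA was searched for, again on either strand, and so was the closely related form TGATAA.
Nppa: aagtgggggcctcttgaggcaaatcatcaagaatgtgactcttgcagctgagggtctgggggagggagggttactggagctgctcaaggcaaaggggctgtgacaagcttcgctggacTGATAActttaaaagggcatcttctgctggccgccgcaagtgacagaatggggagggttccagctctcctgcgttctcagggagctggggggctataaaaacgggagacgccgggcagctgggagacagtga
Nppb: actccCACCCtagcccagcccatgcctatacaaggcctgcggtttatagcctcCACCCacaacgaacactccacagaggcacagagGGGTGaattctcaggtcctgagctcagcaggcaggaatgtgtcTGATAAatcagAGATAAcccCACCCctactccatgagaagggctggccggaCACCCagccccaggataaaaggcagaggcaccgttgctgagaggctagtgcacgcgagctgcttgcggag
Matches were counted on both strands over 300 bases, 250 before and 50 after the start. The KLF box occurred 5 times before Nppb and 0 times before Nppa. At least 1 copy was present in 54.9% of 33469 rat promoter windows of that length, and 5 or more in 1.05%. The GATA box, bound by cardiac GATA factors, occurred 2 times for Nppb and 1 time for Nppa. At least 1 match was present in 18.9% of all windows, and 2 or more in 3.13%. The M-CAT box CATTCC, bound by TEAD factors, occurred 1 time for Nppb and 0 times for Nppa, with a match in 14.2% of windows. The NKX box AAGTG, bound by the cardiac factor NKX2-5, had 2 matches for Nppa and 1 for Nppb, with a match in 46.2% of windows. The CRE core TGACG, bound by CREB factors, had 1 match for Nppa and 0 for Nppb, with a match in 21.2% of windows, and the TRE TGACTCA, bound by AP-1 and present in 4.63% of windows, was in neither window. These matches describe letters and do not show binding. Whether they bear on the fold changes of either gene under added KLF2 was not tested. The library of CUT&Tag peaks for KLF2 was not used here, because no gene positions on the build of its peaks were given.

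Knockdown libraries held 181101876 to 224082309 counts, and overexpression libraries 32693762 to 76138723. At this depth the members were far from the counting limit, with 528 to 1786051 counts per library. Levels are given in CPM, counts relative to the library total (the usual CPM unit) after scaling with TMM factors, which were computed within each table, so levels were not tested across tables. Nothing in the labels ties replicates to separate cultures or litters, so the p-values rest on a spread among libraries that may be technical. Where groups are said not to overlap, this describes the members alone. Overlap was not counted over all tested genes, so it does not set the members apart from other genes. In bulk RNA a smaller share of expressing cells and less RNA per cell cannot be told apart.

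**Figure D1:**
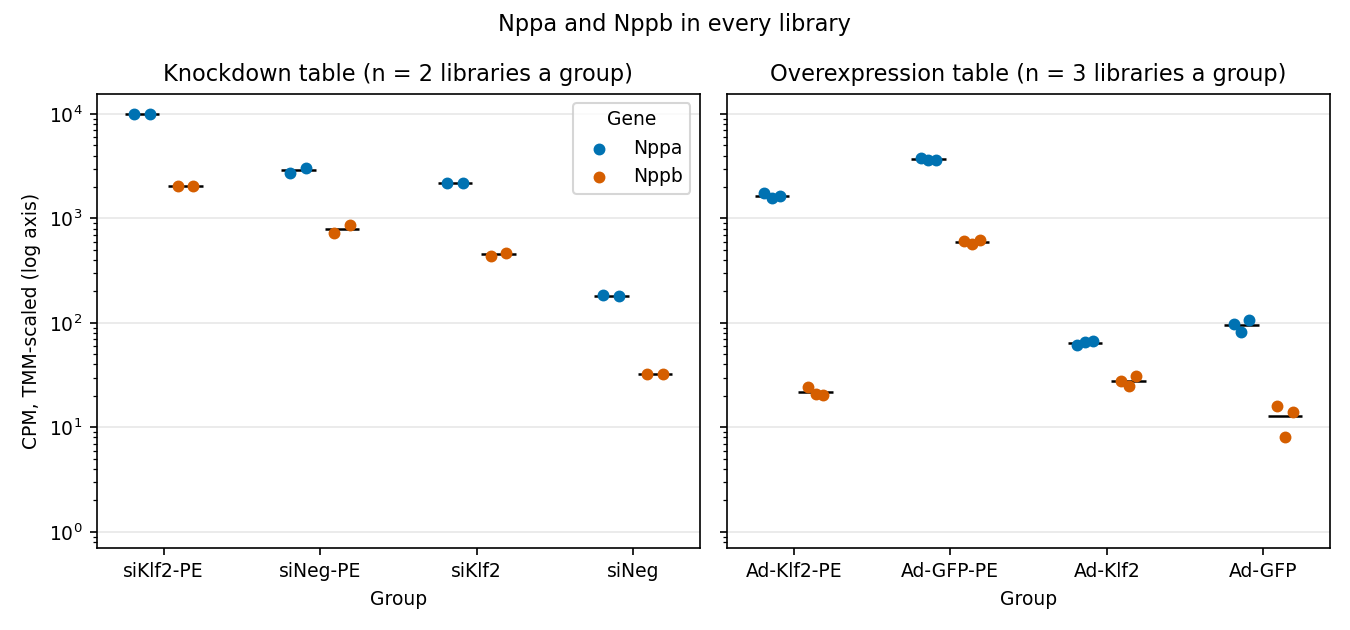
CPM of Nppa and Nppb on a log axis in every library of the knockdown table (left, 2 libraries a group) and the overexpression table (right, 3 libraries a group), with points for libraries and lines for group means. Both genes are highest in siKlf2-PE in the left panel, while Nppb in the right panel is high in Ad-GFP-PE alone, at 573 to 619.97 CPM.

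The first comparison asked how control cells responded to PE. Both genes rose in both control arms, and they were among the largest rises of each table. Nppa stood at 2754 and 3015 CPM in siNeg-PE, against 183 and 182 CPM in siNeg. Nppb stood at 723 and 858 CPM in siNeg-PE, against 32.1 and 32.2 CPM in siNeg. The PE libraries were all above the untreated ones, and both siNeg libraries were nearly equal. By log2 fold change counted from the highest, Nppb ranked 5 and Nppa 6 of 18173 tested genes. The log2 fold change was 3.98 for Nppa (SE 0.047, adjusted p = 2.21e-12) and 4.62 for Nppb (SE 0.077, adjusted p = 1.25e-11) in edgeR's quasi-likelihood test, adjusted over all tested genes. Calls were made where the adjusted p was under 0.05, and 24.8% of tested genes were called higher here (16.8% with library totals in place of TMM factors).

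In the virus arm Nppa stood at 3819.7, 3669 and 3635 CPM in Ad-GFP-PE, against 97.5, 81.5 and 106 CPM in Ad-GFP. Nppb stood at 608, 573 and 619.97 CPM in Ad-GFP-PE, against 16.1, 8.10 and 14.1 CPM in Ad-GFP. The lowest Nppb value belonged to Ad-GFP replicate 2. These were 39.1-fold and 47.1-fold rises, with log2 fold changes of 5.29 for Nppa (SE 0.085, edgeR adjusted p = 5.62e-18) and 5.56 for Nppb (SE 0.172, edgeR adjusted p = 4.97e-14). Nppb ranked 53 and Nppa 64 among 16153 tested genes, of which 18.3% were called higher (11.6% with library totals). With any single library left out, the log2 fold change of Nppb was 5.31 to 5.75.

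Whether siKlf2 changes these marker transcripts was asked in cells without PE and with it. Without PE, Nppa and Nppb were among the few genes with the largest rises after knockdown. Nppa stood at 2171 and 2163 CPM in siKlf2, against 183 and 182 CPM in siNeg. Nppb stood at 434 and 471 CPM in siKlf2, against 32.1 and 32.2 CPM in siNeg. The groups were far apart, by 11.9-fold for Nppa and 14.1-fold for Nppb. By log2 fold change Nppb ranked 2 and Nppa 5 of 18173 tested genes, of which 27.2% were called higher (12.6% with library totals). The log2 fold change was 3.57 for Nppa (95% interval 3.47 to 3.67, edgeR adjusted p = 2.9e-12) and 3.81 for Nppb (95% interval 3.65 to 3.98, edgeR adjusted p = 3.63e-11).

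Knockdown alone did not bring either gene to the level of control cells with PE. Nppa in siKlf2 was 0.751 times its level in siNeg-PE (log2 fold change -0.41, SE 0.042, edgeR adjusted p = 6.36e-06). Nppb in siKlf2 was 0.573 times its level in siNeg-PE (log2 fold change -0.80, SE 0.066, edgeR adjusted p = 1.18e-06). Both members were thus called lower, as were 28% of tested genes (34.7% with library totals). This comparison was added after the levels were seen. Its log2 fold change was -0.48 to -0.35 for Nppa and -0.92 to -0.68 for Nppb with any single library left out.

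With PE the difference remained and was smaller as a fold change, while the gap in CPM was wider than without PE. Nppa stood at 9929 and 9974 CPM in siKlf2-PE, against 2754 and 3015 CPM in siNeg-PE. Nppb stood at 2058 and 2039.8 CPM in siKlf2-PE, against 723 and 858 CPM in siNeg-PE. The siKlf2-PE libraries held the highest value of both genes in the table, and no library of the other groups reached them. As a share of all counts, Nppa alone took 0.866% ± 0.0022 in siKlf2-PE, against 0.301% ± 0.0138 in siNeg-PE (SD, n = 2 each). Nppb took 0.178% ± 0.0012 in siKlf2-PE, against 0.0825% ± 0.00846 in siNeg-PE (SD, n = 2 each). These shares do not use the TMM factors, which were 0.871 and 0.870 in siKlf2-PE and 1.06 and 1.03 in siNeg-PE. With TMM factors the log2 fold change was 1.79 for Nppa (95% interval 1.69 to 1.88, edgeR adjusted p = 1.56e-10). For Nppb it was 1.37 (95% interval 1.23 to 1.52, edgeR adjusted p = 1.99e-08). Library totals gave smaller log2 fold changes, 1.52 for Nppa and 1.11 for Nppb. Nppa ranked 94 and Nppb 229 of 18173 genes, of which 26.1% were called higher (10.2% with library totals).

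PE raised both genes in siKlf2 cells too, by nearly the same factor. Nppa was 4.59-fold higher in siKlf2-PE than in siKlf2 (log2 fold change 2.20, SE 0.044, edgeR adjusted p = 5.27e-11). Nppb was 4.53-fold higher in siKlf2-PE than in siKlf2 (log2 fold change 2.18, SE 0.069, edgeR adjusted p = 7.35e-10). Here 24.4% of tested genes were called higher (12.6% with library totals), and the members ranked 53 and 55. As a fold change, the PE response was smaller in siKlf2 than in siNeg for both, while the rise in CPM was larger in siKlf2. The interaction was -1.78 for Nppa (SE 0.059, edgeR adjusted p = 1.61e-07) and -2.44 for Nppb (SE 0.095, edgeR adjusted p = 2.93e-07), while 7.35% of tested genes had a called lower interaction (12.3% with library totals).

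Knockdown and PE together gave the highest levels of the table. In siKlf2-PE, Nppa was 54.5-fold and Nppb 63.7-fold higher than in siNeg, ranks 4 and 3 of 18173 genes, of which 31.2% were called higher (13.5% with library totals). This was less than the product of the separate fold changes, by 3.44-fold for Nppa and 5.43-fold for Nppb, which is the log2 interaction written as a fold. An interaction of differences in CPM was not tested. The comparison of siKlf2-PE with siNeg was added after the levels were seen, and the comparisons of a table share libraries, so they are not independent of each other. The order of groups was the same for both genes, rising through siNeg, siKlf2, siNeg-PE and siKlf2-PE. Each neighbour in that order differed with a call.

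**Figure D2:**
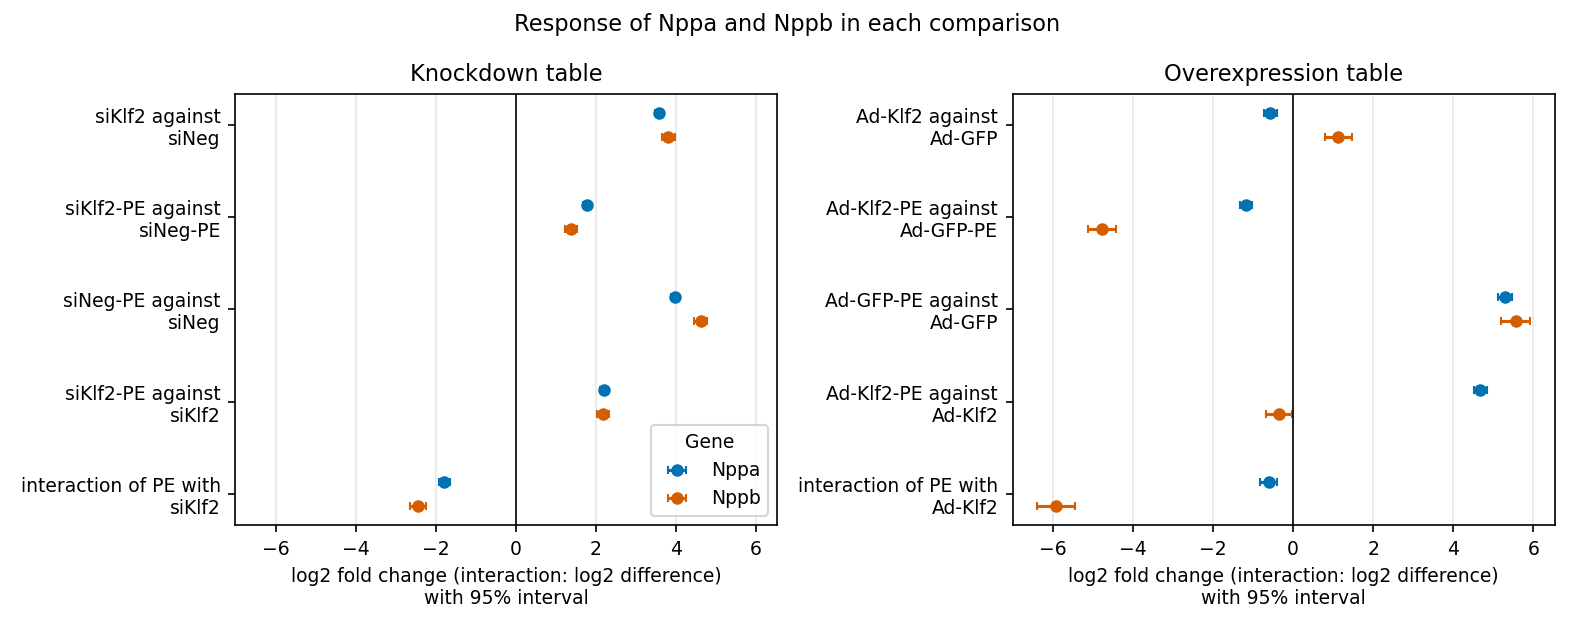
Log2 fold change of Nppa and Nppb in each comparison, with a 95% interval derived from the F statistic of the edgeR test. The interaction is a log2 difference of PE responses. The knockdown table is on the left and the overexpression table on the right. The genes lie close together in the left panel, while on the right they lie at -1.17 and -4.78 for Ad-Klf2-PE against Ad-GFP-PE and at 4.68 and -0.35 for Ad-Klf2-PE against Ad-Klf2.

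Whether added KLF2 lowers the same markers was asked next, and here the genes separated. In cells with PE, Nppb was lower by a large factor in Ad-Klf2-PE and Nppa by a small one. Nppb stood at 24.3, 20.8 and 20.2 CPM in Ad-Klf2-PE, against 608, 573 and 619.97 CPM in Ad-GFP-PE. Nppa stood at 1756, 1556 and 1631 CPM in Ad-Klf2-PE, against 3819.7, 3669 and 3635 CPM in Ad-GFP-PE. Every Ad-Klf2-PE library was below every Ad-GFP-PE library for both genes. Nppb fell 27.5-fold (log2 fold change -4.78, 95% interval -5.13 to -4.43, edgeR adjusted p = 8.03e-15), and ranked 54 of 16153 genes counted from the largest fall. Nppa fell 2.25-fold (log2 fold change -1.17, 95% interval -1.32 to -1.02, edgeR adjusted p = 3.38e-11), and ranked 1900 from the largest fall. With 32.1% of tested genes called lower, a call in this direction was common in the comparison.

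Without PE the genes moved in opposite directions. Nppb stood at 28.0, 24.9 and 31.1 CPM in Ad-Klf2, against 16.1, 8.10 and 14.1 CPM in Ad-GFP. Nppa stood at 60.9, 65.2 and 66.6 CPM in Ad-Klf2, against 97.5, 81.5 and 106 CPM in Ad-GFP. All 3 Ad-Klf2 libraries were above the Ad-GFP libraries for Nppb and below them for Nppa. The log2 fold change was 1.13 for Nppb (SE 0.159, edgeR adjusted p = 1.39e-05), where 20% of tested genes were called higher, and -0.56 for Nppa (SE 0.073, edgeR adjusted p = 5.76e-06), where 15.1% were called lower. The 3 Ad-GFP libraries were the least alike of any group, with correlations of log2 CPM across genes of 0.959 to 0.965, against 0.982 to 0.996 within the other groups. Their part in this result was not tested. With any single library left out, the log2 fold change of Nppb was 0.92 to 1.36 and that of Nppa -0.63 to -0.45, all called.

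The PE response in cells with added KLF2 showed the separation within a single arm. Nppa was 25.7-fold higher in Ad-Klf2-PE than in Ad-Klf2, with 1756, 1556 and 1631 CPM against 60.9, 65.2 and 66.6 CPM. The log2 fold change of Nppa, 4.68 (SE 0.083, edgeR adjusted p = 1.24e-17), ranked 101 of 16153 genes, of which 31.6% were called higher (24.8% with library totals). Nppb had 24.3, 20.8 and 20.2 CPM in Ad-Klf2-PE, against 28.0, 24.9 and 31.1 CPM in Ad-Klf2. Thus Nppb showed no rise with PE, and its log2 fold change of -0.35 missed the threshold (SE 0.154, 95% interval -0.68 to -0.03, edgeR adjusted p = 0.0555), in a comparison where 29.6% of tested genes were called lower. The call was near the threshold and depended on the settings. It was made with a replicate block (log2 fold change -0.36, edgeR adjusted p = 0.0205), although same-numbered libraries did not pair, and the adjusted p over all other alternatives was 0.000293 to 0.191, with the log2 fold change between -0.55 and -0.30.

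The interaction separated the genes by the same contrast. The PE response of Nppb was lower in Ad-Klf2 cells than in Ad-GFP cells by a log2 difference of -5.91 (SE 0.224, edgeR adjusted p = 2.2e-13), rank 32 of 16153 genes counted from the lowest. That of Nppa was lower by a log2 difference of -0.61 (SE 0.101, edgeR adjusted p = 5.99e-05), rank 3841 from the lowest. A called lower interaction was found for 24% of tested genes. Against untreated control cells, Nppa in Ad-Klf2-PE was still 17.4-fold above Ad-GFP (log2 fold change 4.12, SE 0.080, edgeR adjusted p = 3.04e-18). Nppb in Ad-Klf2-PE was 1.72-fold above Ad-GFP (log2 fold change 0.78, SE 0.159, edgeR adjusted p = 0.000262). Over the alternatives run, this log2 fold change of Nppb was 0.54 to 0.99. As a share of all counts, Nppb was 0.00183% in the lowest Ad-Klf2-PE library and 0.00174% in the highest Ad-GFP library. In this comparison, added after the levels were seen, 35.4% of tested genes were called higher (29% with library totals).

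The order of groups therefore differed between the genes in the overexpression table. Nppa rose through Ad-Klf2, Ad-GFP, Ad-Klf2-PE and Ad-GFP-PE, and each neighbour differed with a call. Nppb rose through Ad-GFP, Ad-Klf2-PE, Ad-Klf2 and Ad-GFP-PE, and among its neighbours Ad-Klf2-PE and Ad-Klf2 were those that missed the threshold. Its largest step lay between Ad-Klf2 and Ad-GFP-PE, where the log2 fold change of Ad-Klf2 against Ad-GFP-PE was -4.43 (SE 0.162, edgeR adjusted p = 1.58e-13), in a comparison added after the levels were seen with 18.3% of tested genes called lower (13.5% with library totals). The Ad-Klf2-PE and Ad-Klf2 libraries did not overlap, but the gap between the highest Ad-Klf2-PE library at 24.3 CPM and the lowest Ad-Klf2 library at 24.9 CPM was small.

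**Figure D3:**
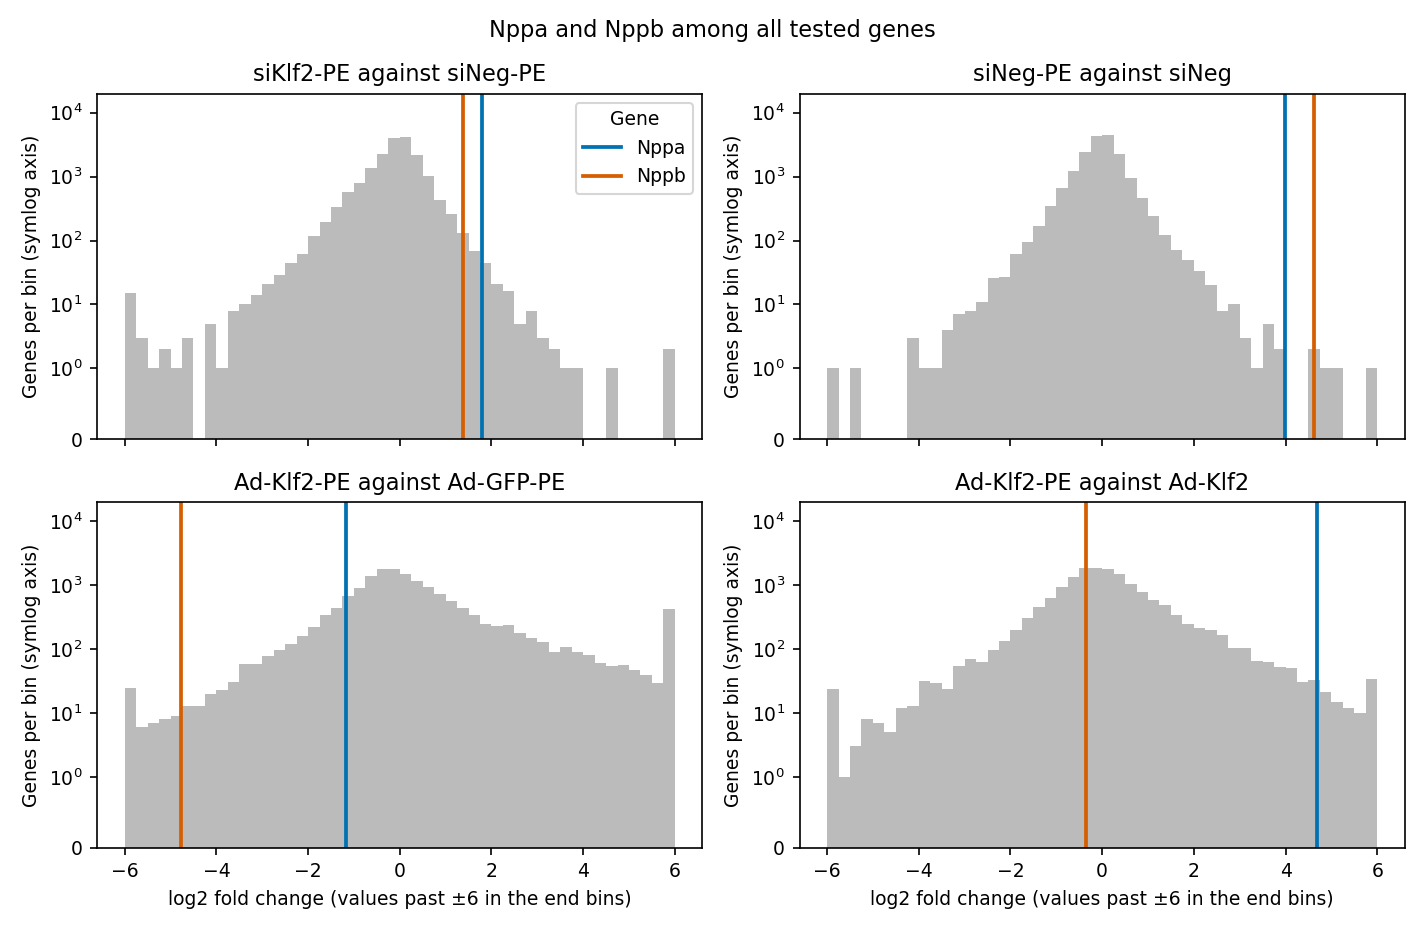
Number of genes by log2 fold change over all tested genes (grey, bins of 0.25, symlog axis) with Nppa and Nppb as lines, in 4 comparisons. Both lines lie in the right tail for siNeg-PE against siNeg, while for Ad-Klf2-PE against Ad-Klf2 Nppa lies in the right tail at 4.68 and Nppb near the middle at -0.35.

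The Nppa to Nppb ratio was taken from the counts of each library and needs no scaling between libraries. It is not per length, so it does not say which transcript was more abundant, and its differences between groups are what is compared. In the knockdown table it stayed in a narrow range. It was 4.83 and 4.89 in siKlf2-PE, against 3.81 and 3.51 in siNeg-PE. Without PE it was 5.01 and 4.59 in siKlf2, against 5.71 and 5.64 in siNeg. PE thus went with a lower ratio in siNeg cells, a 1.55-fold difference, and with overlapping ratios in siKlf2 cells. Over 6 regroupings the exact permutation test of 2 libraries against 2 cannot go below p = 0.333, so none of these could pass.

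In the overexpression table the ratio spread over a much wider range. It was 72.2, 74.9 and 80.6 in Ad-Klf2-PE, against 6.28, 6.40 and 5.86 in Ad-GFP-PE, a 12.3-fold higher ratio with added KLF2. Without PE it was 2.18, 2.62 and 2.14 in Ad-Klf2, against 6.04, 10.1 and 7.51 in Ad-GFP, a 3.34-fold lower ratio with added KLF2. Neither pair of groups overlapped, and the direction was opposite with and without PE. PE went with a 32.9-fold higher ratio in Ad-Klf2 cells and with overlapping ratios in Ad-GFP cells (0.803-fold). The PE effect on the ratio was 41-fold higher in Ad-Klf2 than in Ad-GFP cells, a value given without a test. Each of the 3 non-overlapping comparisons had an exact two-sided permutation p of 0.1, the smallest that 20 regroupings allow, and an adjusted p of 0.267 over the 8 comparisons of 2 groups. For Ad-GFP-PE against Ad-GFP the exact permutation p was 0.3. For PE in both control arms together, permuted within each table, the log2 ratio differed by -0.47 (exact permutation p = 0.05 over 120 regroupings, two-sided, where the smallest possible is 0.0167). It was lower with PE in both arms, but the Ad-GFP part overlapped.

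**Figure D4:**
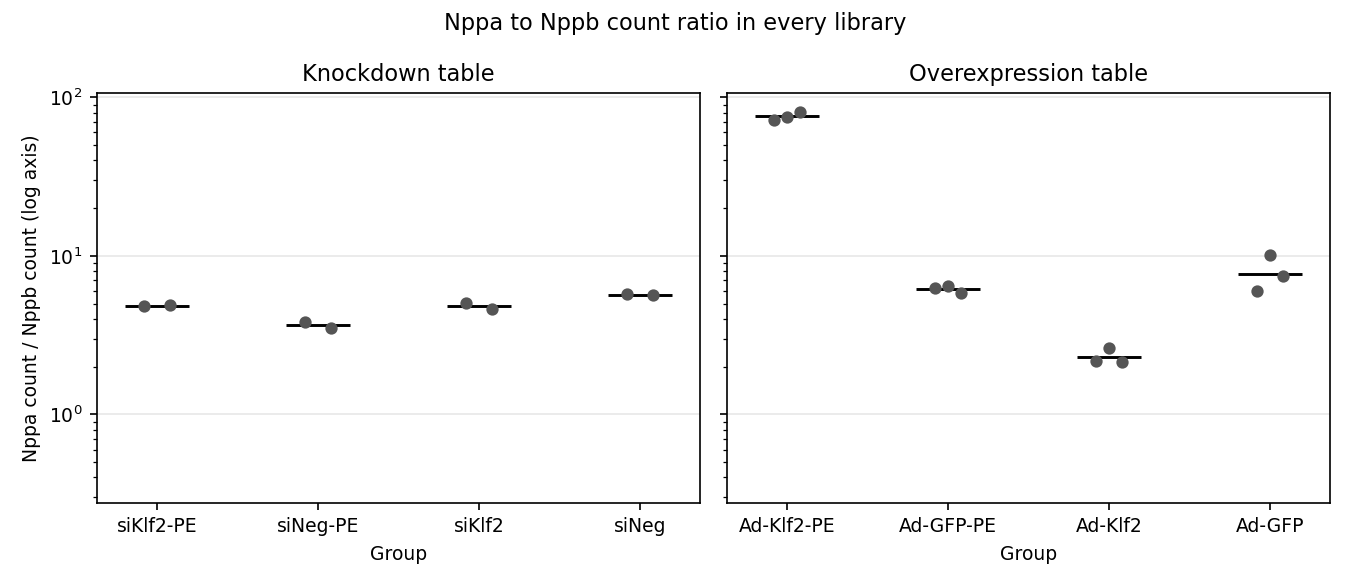
Ratio of the Nppa count to the Nppb count in every library on a log axis, for the knockdown table (left) and the overexpression table (right), with lines at the geometric mean of a group. The 3 Ad-Klf2-PE libraries lie at 72.2 to 80.6 and the 3 Ad-Klf2 libraries at 2.14 to 2.62, on either side of all other libraries, which lie at 3.51 to 10.1.

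The likeness of expression patterns was described over 8 group means of log2 CPM, centred within each table, by Pearson's r among 8769 other IDs whose mean level reached 10 CPM in both tables. Nppb was no close neighbour of Nppa by this measure, with r = 0.833 and rank 388 among IDs most like Nppa, while Nppa had rank 483 among those most like Nppb. The IDs closest to Nppa were ENSRNOG00000019551 (r = 0.990) and ENSRNOG00000004333 (r = 0.985), and those closest to Nppb were ENSRNOG00000004829 (r = 0.992) and ENSRNOG00000002323 (r = 0.985). Their differences between groups were small beside those of the members. ENSRNOG00000004829 averaged 12.5 ± 1.82 CPM in Ad-Klf2-PE and 17.2 ± 0.215 CPM in Ad-GFP-PE (SD, n = 3 each). ENSRNOG00000019551 averaged 110.1 ± 1.26 CPM in Ad-Klf2-PE and 114 ± 5.41 CPM in Ad-GFP-PE (SD, n = 3 each). The points share libraries and scaling, and r says nothing of shared control.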

How the data were processed

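RNA of 20 NRVM libraries was sequenced from 400 ng of total RNA, per the labels' protocols. The authors used Trim Galore, STAR and featureCounts on build mRatBN7.2, per the submitters' processing notes. The annotation, strand setting and handling of mates are not given in the sources used here. The deposited files for knockdown and overexpression hold raw counts by Ensembl ID. Each was fitted by itself in edgeR 4.0.16 (R 4.3.3), with filterByExpr (minimum count 10, minimum total 15), TMM scaling and a quasi-likelihood model of all 4 groups without a block. Two-sided p-values were adjusted over all tested genes by Benjamini-Hochberg. Ratios used counts plus 0.5. As alternatives, RLE factors, unscaled library totals, no filter, DESeq2 (version 1.42.0), a replicate block, fits restricted to the groups compared, halved counts and leaving out each library were run. Same-numbered libraries did not pair (correlations of deviations -0.0432 to 0.0403 and -0.0203 to 0.0446). Replicates differed by more than sampling noise. In the knockdown table they differed most in siNeg-PE, with a chi-square per gene of 51.3, against 11.8 to 17.1 in the other groups. The siNeg-PE libraries enter the PE response of control cells, the knockdown comparison with PE, siKlf2 against siNeg-PE and the interaction. The members and lists were chosen with earlier results of these data known, among them a large PE response of both members, so those responses are no independent support. Of the IDs, 0 matched a symbol in the reference, so the pathway lists, the cell type markers, Klf2 and the peaks near the genes were not analysed here, and for each member only the 2 IDs most like it are named.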

Additional observations from a re-analysis of the deposited data

Results flagged for a closer look

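The PE response differed between arms of the same table for both genes, by the interaction term of the edgeR fit. In the knockdown table the log2 difference in PE response, siKlf2 against siNeg, was -1.78 for Nppa and -2.44 for Nppb. In the overexpression table the log2 difference, Ad-Klf2 against Ad-GFP, was -0.61 for Nppa and -5.91 for Nppb. In siKlf2 the smaller response, as a fold change, came with a higher level in both siKlf2 and siKlf2-PE than in their controls. For Nppb in the overexpression table it came with a lower level in Ad-Klf2-PE than in Ad-GFP-PE (log2 fold change -4.78). Without PE, Nppb was higher in Ad-Klf2 than in Ad-GFP (log2 fold change 1.13).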

How the results depend on the processing

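Of 472 alternative fold changes of Nppa and Nppb, 460 kept their direction and their side of the threshold, and 0 changed direction. The 12 others all concern Nppb in Ad-Klf2-PE against Ad-Klf2, which missed the threshold at -0.35 and was called with library totals (-0.55), with no filter (-0.41), with a replicate block (-0.36), with counts halved (-0.36) and with only both groups compared (-0.39). With each library left out it was -0.46 to -0.30. It was called in 7 of those fits, without Ad-GFP replicate 1 (edgeR adjusted p = 0.0161), 2 (0.000648) or 3 (0.0321), Ad-Klf2 replicate 2 (0.0323), Ad-GFP-PE replicate 2 (0.0497) or 3 (0.0482) and Ad-Klf2-PE replicate 1 (0.0299). The cause was not tested. The replicate block changed no other call. The log2 ratio difference of siKlf2-PE against siKlf2 was -0.043 without siKlf2 replicate 2, against 0.020 with all libraries, a range of -0.043 to 0.082, so its sign is not settled. The PE effect on the ratio differed between siKlf2 and siNeg by 0.59 to 0.72 on the log2 scale with a library left out. The number of genes with a called interaction in the knockdown table was 1553 to 3312 with a library left out, against 2622, where such a fit keeps 1 library in a group. The lowest counts were without siNeg replicate 1 (1739) or 2 (1553), siKlf2 replicate 1 (1669) and siKlf2-PE replicate 1 (1685). Library totals in place of TMM factors moved the median log2 fold change of all genes by -0.37 to -0.04, except in Ad-Klf2 against Ad-GFP-PE, where it moved by 0.10. Sizes for the members moved too, among others in siKlf2-PE against siNeg-PE. There Nppa was 1.52, below its 95% interval of 1.69 to 1.88, and Nppb 1.11, below 1.23 to 1.52. Of 72 alternative group means in CPM, 62 stayed within the group's SD and 10 moved. With library totals Nppa in siKlf2-PE was 8659 CPM, against 9952 CPM. Alternatives for the peaks were not run. With 2 or 3 libraries a group, exact tests of the ratio between 2 groups cannot pass 0.05.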
